A study of Drosophila melanogaster with 6 samples.

Results

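Neuropeptide and peptide processing genes were followed in RNA from larval salivary glands (SG) and from larval brains plus imaginal discs (B-D) of Drosophila melanogaster. The set was taken by exact gene symbol from the deposited count table, and all 37 genes named for it were found among the 17493 genes counted: 32 genes for peptide precursors, 4 for enzymes that turn precursors into active peptides, and dimm, which encodes a transcription factor. There were 3 SG libraries and 3 B-D libraries, described by the study as biological replicates. By its methods both tissues came from the same larvae. The strain was y1 w67c23 in both tissues, with no other allele or agent. The animals, collected as eggs over 6 h and grown at 25 °C, were larvae of the last instar, still feeding, dissected 4 days after the eggs were laid. The labels describe SG as endoreplicating and B-D as mitotic. B-D is a mixture of organs, and the number of larvae behind each library is not given in the sources used here.

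Neuropeptides are short signalling peptides cut from longer precursors and released from dense core vesicles of neurons and endocrine cells. In the larva many of them are made by small, fixed sets of neurons in the brain and ventral nerve cord, and some by endocrine cells of the gut, the trachea or the fat body. A convertase cuts the precursor at basic residues, a carboxypeptidase trims the ends, and a hydroxylase followed by a lyase amidates many of the products. The larval salivary gland is a secretory organ with no neurons of its own.

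Total counts were 45023997 to 55892356 in SG and 45370626 to 56583711 in B-D. Levels are given as CPM, the reads of a gene relative to the size of its library, which was first adjusted by TMM scaling (trimmed mean of M values). A count of 3, taken as the floor, equals 0.0809 to 0.0968 CPM in SG and 0.0364 to 0.0452 CPM in B-D. The neuron markers were lower in SG for 12 of 12 genes, with a summed level of 128 to 334 CPM in SG and 2982 to 3650 CPM in B-D, and none was at 0 in any library. The fat body markers were higher in SG for 7 of 7 genes, with sums of 187100 to 279000 CPM in SG and 712 to 4365 CPM in B-D. The part of fat body RNA in the SG values of other genes was not tested. Of 12 salivary gland markers 8 were higher in SG and 4 glue genes were not called. Their sum was 17560, 30990 and 66310 CPM in SG replicates 1 to 3, against 279 to 769 CPM in B-D, and Sgs5 and Sgs8 were at 0 in B-D replicate 1. In the other marker lists the genes called lower among those tested were 5 of 7 for glia (2 higher), 4 of 4 for neuroblasts, 8 of 8 for imaginal discs, 5 of 6 for the ring gland (1 higher), 5 of 6 for muscle, 3 of 4 for trachea, 1 of 5 for gut and 5 of 6 for hemocytes (1 higher). Akh, the marker of the corpora cardiaca, was also lower.

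Most genes for neuropeptide precursors were far lower in SG, while a small group of precursors and processing enzymes was higher. Fold changes are SG over B-D. Calls use the thresholds of the study, an adjusted p of no more than 0.05 (here from edgeR) together with a log2 fold change of 0.5 or more, up or down. Of the 37 genes 36 could be tested, and 30 were called lower, against 35.3% of all 11369 genes tested. The 4 called higher were Nplp2, CCHa2, Phm and svr, against 34.5% of all genes. Nplp4 and amn were not called. The median log2 fold change was -4.27 over the 36 genes and -0.03 over all genes tested. In 31 of the 36 every SG library lay below every B-D library, which held for 41.3% of all genes. All 36 reached the minimum of the low count filter in every B-D library, but only 16 did so in every SG library. The other 20 entered the test through B-D, so their low values in SG were a condition of how they came to be tested, and the count gives no support to a direction.

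Without TMM, scaled by library size alone, the median of all genes moved by -1.10 on the log2 scale, and higher calls made up 18.3% of all calls, against 49.5% with TMM. Levels below are TMM-scaled, and changes are best read relative to that median. In bulk RNA, fewer cells of a type and less RNA per cell cannot be told apart.

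**Figure D1:**
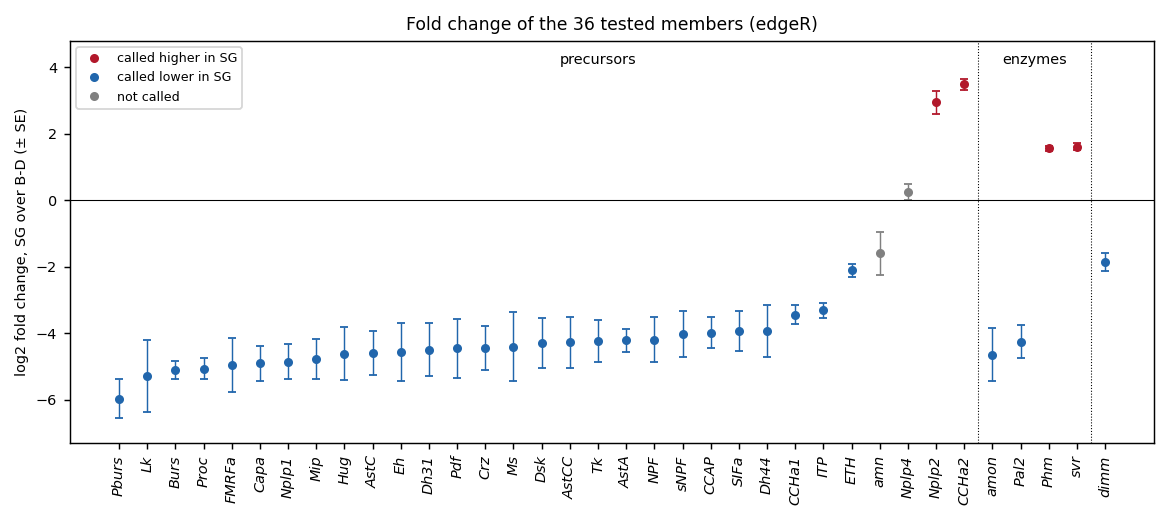
Log2 fold change of SG over B-D with its SE for the 36 tested genes, with precursors, enzymes and dimm separated by dotted lines. Of the precursors 27 lie between -5.98 and -2.11, while CCHa2 (3.48) and Nplp2 (2.94) lie far above 0 and the enzymes split into a pair on each side.

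Among the lowered precursors, those with the highest levels in B-D are described first. Proc encodes proctolin, a peptide that contracts visceral and body wall muscle, and lies on 2L from 7864642 to 7871432 in the Release 6 genome. Proc had 3.88, 2.16 and 4.84 CPM in SG replicates 1 to 3, against 112, 123 and 132 CPM in B-D replicates 1 to 3. The tissues did not overlap, and the difference was 33.6-fold (log2 fold change -5.07 ± 0.32 SE, edgeR adjusted p = 6.55e-05). Ms encodes myosuppressin, which inhibits muscle contraction. Its levels were 5.91, 0.129 and 5.05 CPM in SG replicates 1 to 3, against 71.3, 84.3 and 81.1 CPM in B-D replicates 1 to 3 (-4.41 ± 1.04 SE, edgeR adjusted p = 0.00875). SG replicate 2 held only 4 reads of Ms and was far below the other SG libraries, whereas Proc differed by less than 3-fold among them. Nplp1, whose precursor yields several amidated peptides, had 4.04, 1.49 and 6.27 CPM in SG replicates 1 to 3, against 107, 124 and 114 CPM in B-D (-4.86 ± 0.53 SE, edgeR adjusted p = 3.62e-04).

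Per kilobase of exon, which allows genes to be set beside each other, the lowered precursors ranged in B-D from 1.51 CPM per kb for CCHa1 to 67.0 CPM per kb for Ms, with a median of 21.3. Ms was followed by Proc (61.8), Nplp1 (42.5), Hug (40.1), Crz (37.7), Capa (37.1), Dh31 (32.7), NPF (30.8), ITP (30.7) and Pdf (29.9). Only Nplp2 (1314) and Nplp4 (105), which were not lowered, stood above them. B-D libraries of the lowered genes differed by 3.22% to 17.8% of the mean (coefficient of variation, n = 3), so steps such as Crz to Capa or NPF to ITP are smaller than the spread. Together the 27 lowered precursor genes took 64.8, 20.9 and 62.8 CPM in SG replicates 1 to 3, against 869, 966 and 954 CPM in B-D replicates 1 to 3.

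**Figure D2:**
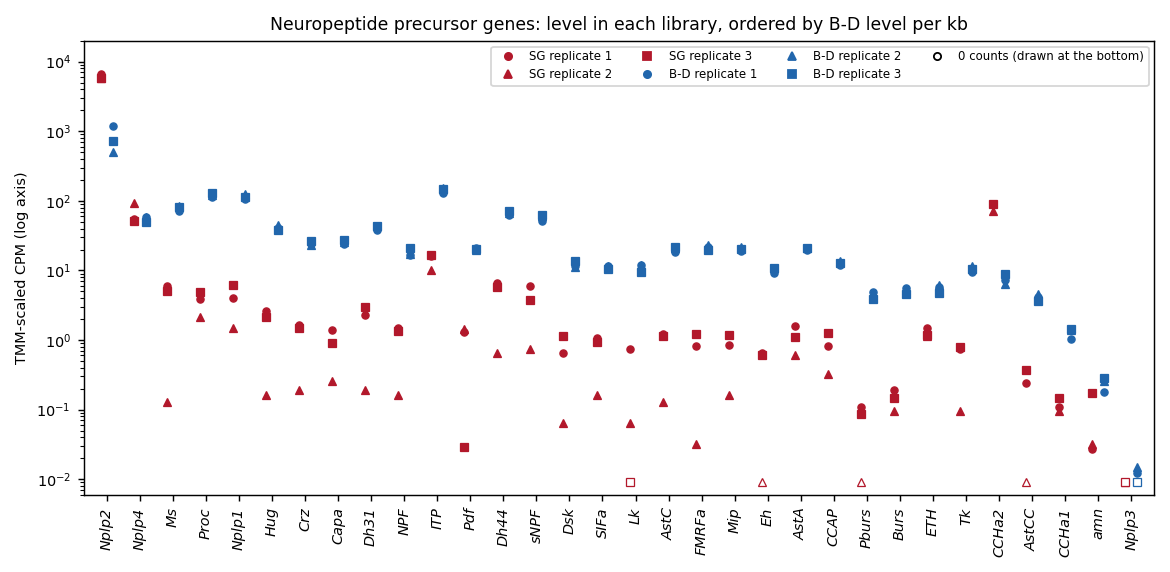
TMM-scaled CPM of the 32 precursor genes in each of the 3 SG and 3 B-D libraries on a log axis, ordered by B-D level per kb of exon. For the 27 lowered genes all SG points lie below all B-D points, and SG replicate 2 (red triangles) is the lowest SG library for 25 of them.

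Precursors of diuretic and osmotic hormones, which act on the renal tubules and hindgut, were all lower in SG. Dh44, related to corticotropin-releasing factor, had 6.69, 0.645 and 5.77 CPM in SG replicates 1 to 3, against 63.4 to 71.5 CPM in B-D (-3.93 ± 0.78 SE, edgeR adjusted p = 0.00407). The calcitonin-like Dh31 was at -4.51 ± 0.80 SE, and Capa, whose peptides act on the Malpighian tubules, at -4.91 ± 0.53 SE. ITP, the ion transport peptide gene, kept the most RNA of this group, with 16.2, 10.3 and 16.8 CPM in SG replicates 1 to 3, against 130.4, 154 and 147 CPM in B-D replicates 1 to 3. Its difference was 9.97-fold (-3.32 ± 0.22 SE, edgeR adjusted p = 6.85e-05). The counts of ITP sum over its transcripts, so its alternative peptide forms are not separated.

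Lk, the leucokinin gene, gave 28, 2 and 0 reads in SG replicates 1 to 3, or 0.755, 0.0645 and 0 CPM, against 978, 803 and 757 reads in B-D replicates 1 to 3, or 9.49 to 12.1 CPM. A count of 0 allows up to 3 reads, so SG replicates 2 and 3 were both at or under the floor. Its log2 fold change was -5.29 ± 1.07 SE (edgeR adjusted p = 0.00455), and -8.41 without SG replicate 1, which held nearly all of its SG reads. Exons of the antisense gene asRNA:CR44843 cover 93.0% of the Lk exons on the other strand, and the strand setting of the counting is not given in the sources used here. The antisense gene had 12 to 14 reads in SG and 37 to 47 reads in B-D.

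Several precursors with roles in feeding were lower as well, while CCHa2 was not. Hug, the hugin precursor, which restrains feeding, was at -4.63 ± 0.80 SE. NPF, the neuropeptide F gene, had 1.48, 0.161 and 1.33 CPM in SG replicates 1 to 3, against 16.8, 17.5 and 20.9 CPM in B-D (-4.20 ± 0.68 SE, edgeR adjusted p = 0.00176). sNPF, the short neuropeptide F gene, is made in many more neurons and had 6.07, 0.742 and 3.74 CPM in SG replicates 1 to 3, against 51.0, 60.6 and 62.0 CPM in B-D (-4.03 ± 0.70 SE), or -4.68 without SG replicate 1. AstA, for allatostatin A, was at -4.22 ± 0.34 SE, and Dsk, for the cholecystokinin-like sulfakinins, at -4.29 ± 0.76 SE, or -5.04 without SG replicate 3. All 5 were called, with edgeR adjusted p-values of at most 0.00251.

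The peptides that act in sequence at ecdysis, when the old cuticle is shed, differed in how much RNA the SG libraries held. Eh, for eclosion hormone, had 24, 0 and 21 reads in SG replicates 1 to 3, against 711 to 856 reads in B-D (-4.58 ± 0.88 SE, edgeR adjusted p = 0.00355). CCAP, the crustacean cardioactive peptide gene, was at -3.99 ± 0.46 SE. Burs and Pburs encode the subunits of the hormone bursicon, which hardens the new cuticle. Burs had 7, 3 and 5 reads in SG replicates 1 to 3, against 348 to 456 reads in B-D (-5.11 ± 0.28 SE, edgeR adjusted p = 4.54e-05). Pburs had 4, 0 and 3 reads in SG replicates 1 to 3, against 293 to 400 reads in B-D, with a log2 fold change of -5.98 ± 0.59 SE (edgeR adjusted p = 2.47e-04).

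ETH, for ecdysis triggering hormone, is made by the Inka cells that sit on the trachea, and it was the least lowered of the 27 genes. It had 1.51, 1.16 and 1.19 CPM in SG replicates 1 to 3, against 5.82, 6.10 and 4.78 CPM in B-D replicates 1 to 3. The tissues did not overlap and the difference was 4.31-fold (-2.11 ± 0.20 SE, edgeR adjusted p = 2.25e-04). As a share of the B-D mean, ETH held 27.1%, 20.9% and 21.4% in SG replicates 1 to 3, while the median of the tested trachea markers stood at 23.3%, 23.8% and 25.3%. These are medians of 4 markers that spread widely, with verm at 16.3% to 18.0%, trh at 15.6% to 20.3%, serp at 28.8% to 30.7% and btl, which was not called, at 67.9% to 95.6%. The summed level of the trachea markers was 35.0 to 39.1 CPM in SG and 143 to 158 CPM in B-D, with no marker at 0 in any library. The marker Cpr49Ae was not tested. It had 1, 1 and 2 reads in SG replicates 1 to 3, under the floor, and 6, 3 and 2 reads in B-D. The part of trachea RNA in the ETH value was not tested. Exons of asRNA:CR43257 on the other strand cover 90.5% of the ETH exons, and this antisense gene had 72 to 119 reads in SG and 140 to 195 in B-D. Without a stated strand setting the reads of this pair cannot be told apart.

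Precursors of brain circuits followed the same course. FMRFa, whose peptides are released from thoracic neurosecretory cells, had 0.809, 0.0323 and 1.22 CPM in SG replicates 1 to 3, against 19.9 to 23.3 CPM in B-D (-4.96 ± 0.82 SE, edgeR adjusted p = 0.00191), or -5.62 without SG replicate 3. Values for others were -4.77 for Mip (myoinhibitory peptides), -4.46 for Crz (corazonin, a stress hormone), -4.24 for Tk (tachykinins) and -3.93 for SIFa, 21.1% of whose exons lie under the gene Start1 on the other strand. AstC and AstCC encode related allatostatins and are neighbours on 2L, AstC from 11076165 to 11081399 and AstCC from 11083459 to 11085229, on the same strand. AstC had 45, 4 and 40 reads in SG replicates 1 to 3, against 1397 to 1724 reads in B-D (-4.60 ± 0.67 SE). AstCC was a weaker transcript, with 9, 0 and 13 reads in SG replicates 1 to 3, against 295 to 343 reads in B-D (-4.28 ± 0.77 SE, or -4.98 without SG replicate 3). CCHa1, made in the gut and brain, was low in both tissues, with 3 to 5 reads in SG and 85 to 115 reads in B-D (-3.44 ± 0.29 SE, edgeR adjusted p = 1.49e-04). The edgeR adjusted p of the 27 lowered precursor genes ran from 4.54e-05 to 0.00875.

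Pdf, the pigment dispersing factor gene of the circadian clock neurons, set the SG libraries apart in a way of its own. It had 48, 45 and 1 reads in SG replicates 1 to 3, or 1.29, 1.45 and 0.0290 CPM, against 1743, 1322 and 1597 reads in B-D replicates 1 to 3, or 21.1, 19.9 and 20.0 CPM. The log2 fold change was -4.46 ± 0.90 SE (edgeR adjusted p = 0.00446). For 25 of the 27 lowered precursors SG replicate 2 was the lowest SG library. The exceptions were Pdf and Lk, for which it was SG replicate 3. SG replicate 2 stood at 15.1% of the mean of SG replicates 1 and 3 for the median lowered precursor and at 13.3% for the median neuron marker, whereas for Pdf it was close to SG replicate 1 and only SG replicate 3, with 1 read, was under the floor.

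The medians of neuron, neuroblast and ring gland markers varied over the SG libraries in a like way, while that of glia markers did not. Single glia genes differed from each other in this. Set against the average of the other SG libraries, SG replicate 2 was at 5.55% for wrapper and 19.1% for alrm. For the other glia genes it was at 53.8% (repo), 74.7% (Gs2), 86.1% (nrv2), 98.1% (loco) and 124% (moody). Of these, loco and moody were called higher in SG. The ring gland gene sro, also called higher, was at 69.4%. As a share of the B-D mean, the median lowered precursor held 6.36%, 0.924% and 6.00% in SG replicates 1 to 3. The median of the 12 neuron markers held 4.78%, 0.747% and 7.04%. The median held 6.69%, 1.04% and 7.04% for neuroblast markers and 7.80%, 0.875% and 6.72% for ring gland markers, while Akh of the corpora cardiaca held 10.6%, 0.630% and 11.9%. Of the 27 genes 9, CCHa1 among them, had 3 reads or fewer in SG replicate 2, while in that library Pdf held 7.13%, ITP 7.16% and ETH 20.9% of the B-D mean. In a comparison of SG replicate 2 alone with B-D, a fit in which the spread comes from the B-D libraries only and is assumed for SG, the median log2 fold change of the 27 genes was -6.73, against -4.46 with all libraries and -3.98 without SG replicate 2, and all 27 were called in each. The part of RNA from any of these cells in the SG values was not tested.

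**Figure D3:**
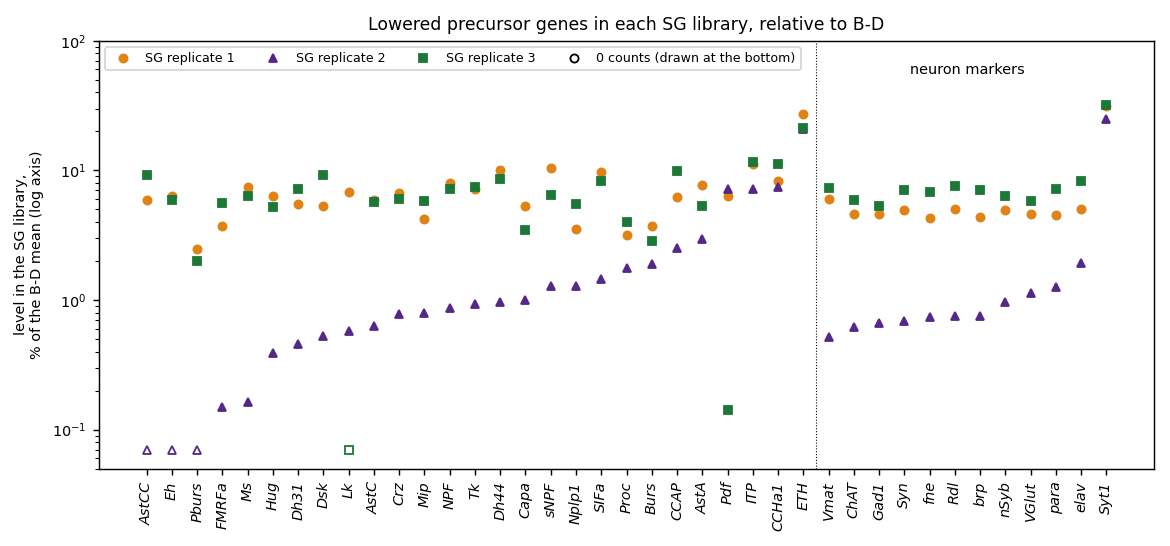
Level of each of the 27 lowered precursor genes, and of 12 neuron markers to the right of the dotted line, in each SG library as a percent of the B-D mean, on a log axis. SG replicate 2 (triangles) falls below the other SG libraries for most genes of both kinds, with medians of 0.924% and 0.747%, but not for Pdf, and ETH lies above 20% in every SG library.

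A pair of precursor genes was higher in SG. CCHa2 encodes a peptide that the larval fat body and gut release and that acts on insulin producing cells of the brain. CCHa2 had 89.97, 72.0 and 89.5 CPM in SG replicates 1 to 3, against 7.24, 6.37 and 8.87 CPM in B-D replicates 1 to 3. All SG libraries lay above all B-D libraries, by 11.2-fold in the fit (log2 fold change 3.48 ± 0.17 SE, edgeR adjusted p = 3.71e-05), and the value was 2.39 without TMM. The gene lies on 3R from 13389059 to 13395197, and no exon of another gene overlaps it.

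Nplp2, a small secreted precursor first described from peptides of the larval nervous system, lies on 3L from 13356376 to 13357223 and was the most abundant transcript of the set in both tissues. It had 6750, 5860 and 5893 CPM in SG replicates 1 to 3, against 1186, 497 and 722 CPM in B-D replicates 1 to 3 (2.94 ± 0.34 SE, edgeR adjusted p = 4.53e-04). By itself Nplp2 took 0.403% to 0.448% of all counts in SG and 0.0727% to 0.173% in B-D. The B-D libraries differed from each other more than the SG libraries did. For Nplp2 their order was that of the summed fat body markers, at 4365, 712 and 1659 CPM in B-D replicates 1 to 3. Lsp1alpha, Lsp1beta, Lsp1gamma, Lsp2 and apolpp shared this order, and Fbp1 and Fbp2 did not. Fbp2, at 18.05, 0.467 and 21.25 CPM in B-D replicates 1 to 3, had the B-D order of CCHa2. Fbp1, at 0.752, 0.889 and 8.74 CPM, had that of neither gene. In SG the sum of the fat body markers was 279000, 226400 and 187100 CPM in replicates 1 to 3, and no fat body marker was at 0 in any library. The part of fat body RNA in the CCHa2 and Nplp2 values was not tested.

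The remaining precursors gave no call. Nplp4 had 54.3, 92.3 and 51.2 CPM in SG replicates 1 to 3, against 58.1, 58.2 and 49.9 CPM in B-D, and the tissues overlapped (0.25 ± 0.24 SE, edgeR adjusted p = 0.377). Its sign rests on SG replicate 2: the value was -0.07 without that library and, without TMM, -0.84, which was called lower (edgeR adjusted p = 0.0199). amn, the memory gene amnesiac, was near the floor, with 1, 1 and 6 reads in SG replicates 1 to 3, against 15, 17 and 23 reads in B-D (-1.60 ± 0.64 SE, edgeR adjusted p = 0.0588). Without SG replicate 3 it was called, at -2.95 (edgeR adjusted p = 0.00387). Nplp3 had 0 reads in every SG library, against 1, 1 and 0 reads in B-D, under the floor throughout, and was not tested.

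The processing enzymes divided sharply. amon encodes the prohormone convertase 2 of flies, the enzyme that cuts neuropeptide precursors, and fell to 5.42, 0.549 and 5.40 CPM in SG replicates 1 to 3, against 87.0, 105 and 96.5 CPM in B-D replicates 1 to 3 (-4.66 ± 0.80 SE, edgeR adjusted p = 0.00223). 7B2, whose product the convertase needs to mature and which was named after its value was seen, had 4.02, 0.968 and 4.24 CPM in SG, against 63.4 to 69.0 CPM in B-D (-4.42 ± 0.55 SE). In both genes SG replicate 2 was far below the other SG libraries, as for most precursors.

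In contrast, svr, the carboxypeptidase D gene silver, which trims basic residues from peptides and other secreted proteins, was higher in SG. Its levels were 659.5, 761 and 766 CPM in SG replicates 1 to 3, against 227, 233 and 258 CPM in B-D (1.61 ± 0.11 SE, edgeR adjusted p = 7.65e-05), and the tissues did not overlap. Phm encodes the monooxygenase that hydroxylates the terminal glycine in the first step of amidation, and had 179, 193 and 204 CPM in SG replicates 1 to 3, against 66.2, 63.0 and 65.8 CPM in B-D (1.56 ± 0.08 SE, edgeR adjusted p = 4.49e-05). Without TMM svr was at 0.51 and still called, and Phm at 0.47, under the threshold of 0.5, while the median gene stood at -1.13.

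The lyases of the second amidation step went in opposite directions. Pal2 fell to 8.57, 2.68 and 9.69 CPM in SG replicates 1 to 3, against 129.5, 138 and 134 CPM in B-D (-4.26 ± 0.50 SE, edgeR adjusted p = 4.60e-04), with 25.7% of its exons under CG30183 on the other strand. Pal1, its paralog and no member of the set, rose to 169, 144 and 153 CPM in SG, against 37.7, 33.6 and 34.9 CPM in B-D (2.13 ± 0.10 SE, edgeR adjusted p = 3.29e-05). Per kilobase of exon Pal1 stood at 51.8 CPM and Pal2 at 3.03 CPM in SG, whereas in B-D Pal1 stood at 11.8 CPM and Pal2 at 58.1 CPM.

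**Figure D4:**
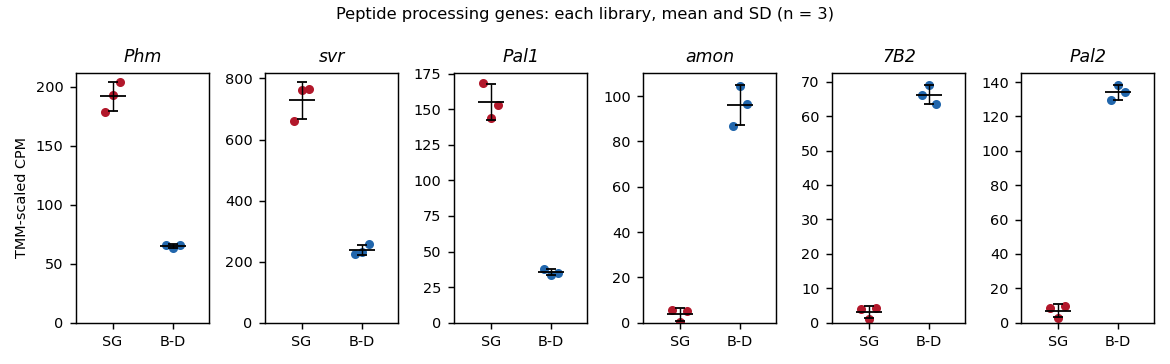
TMM-scaled CPM of 6 peptide processing genes in the 3 SG (left) and 3 B-D (right) libraries of each panel, with mean and SD, on linear axes from 0. Phm, svr and Pal1 are higher in SG by 1.56, 1.61 and 2.13 on the log2 scale, while amon, 7B2 and Pal2 are near 0 in SG.

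dimm encodes a basic helix-loop-helix factor that sets up the secretory machinery of peptidergic cells. It was a weak transcript, at 0.566, 0.645 and 1.02 CPM in SG replicates 1 to 3, against 2.40, 2.83 and 2.88 CPM in B-D replicates 1 to 3. The tissues did not overlap (-1.86 ± 0.27 SE, edgeR adjusted p = 0.00118). With 20 to 35 reads in SG it held 20.9%, 23.9% and 37.5% in SG replicates 1 to 3 as a share of the B-D mean, and SG replicate 2 did not stand below the others as it did for amon.

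Of 37 receptor genes for neuropeptides and peptide hormones, some of them with ligands outside the set, all were tested. Of these 31 were lower in SG, against 35.3% of all genes, and 6 were higher, against 34.5% of all genes, with a median log2 fold change of -3.67. Only 17 reached the filter minimum in every SG library, and the other 20 entered the test through B-D. CrzR, the corazonin receptor, had 362, 364 and 288 CPM in SG replicates 1 to 3, against 12.4, 12.5 and 14.1 CPM in B-D, a difference of 26.0-fold (4.70 ± 0.14 SE, edgeR adjusted p = 2.76e-05). Its ligand gene Crz was at -4.46. Pdfr, the receptor for the Pdf peptide, had 22.4, 17.65 and 14.04 CPM in SG replicates 1 to 3, against 1.36 to 1.72 CPM in B-D (3.55 ± 0.23 SE, edgeR adjusted p = 6.55e-05), and Lgr1, a glycoprotein hormone receptor, was at 2.36 ± 0.22 SE.

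The other 3 receptors called higher were named after their values were seen. AkhR, through which adipokinetic hormone acts on the fat body, had 72.1, 50.6 and 58.1 CPM in SG, against 1.237, 0.211 and 0.552 CPM in B-D (6.48 ± 0.65 SE, edgeR adjusted p = 2.73e-04), and was at 7.31 without B-D replicate 1. Its order over the B-D libraries was that of the summed fat body markers. Lsp1alpha, Lsp1beta, Lsp1gamma, Lsp2 and apolpp among them shared this order, and Fbp1 and Fbp2 did not. Over the SG libraries the orders of AkhR and of that sum differed. There apolpp, at 23850, 22670 and 23060 CPM in SG replicates 1 to 3, had the order of AkhR, and the other fat body markers did not. The part of fat body RNA in the AkhR value was not tested. ETHR, the receptor for ecdysis triggering hormone, had 70.1, 67.6 and 157 CPM in SG replicates 1 to 3, against 2.96 to 4.56 CPM in B-D (4.61 ± 0.44 SE, edgeR adjusted p = 2.20e-04). AstC-R1 (1.29 ± 0.43 SE, edgeR adjusted p = 0.0336) lost its call without any one of B-D replicates 1 and 2 and SG replicates 1 and 2 (1.02 to 1.34), and without TMM was at 0.19. The lower receptors with the smallest p were TkR86C (-4.21), CCHa1-R (-3.94) for CCHamide 1 and AstA-R1 (-3.51) for allatostatin A. They had 6 to 22 reads in an SG library.

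**Figure D5:**
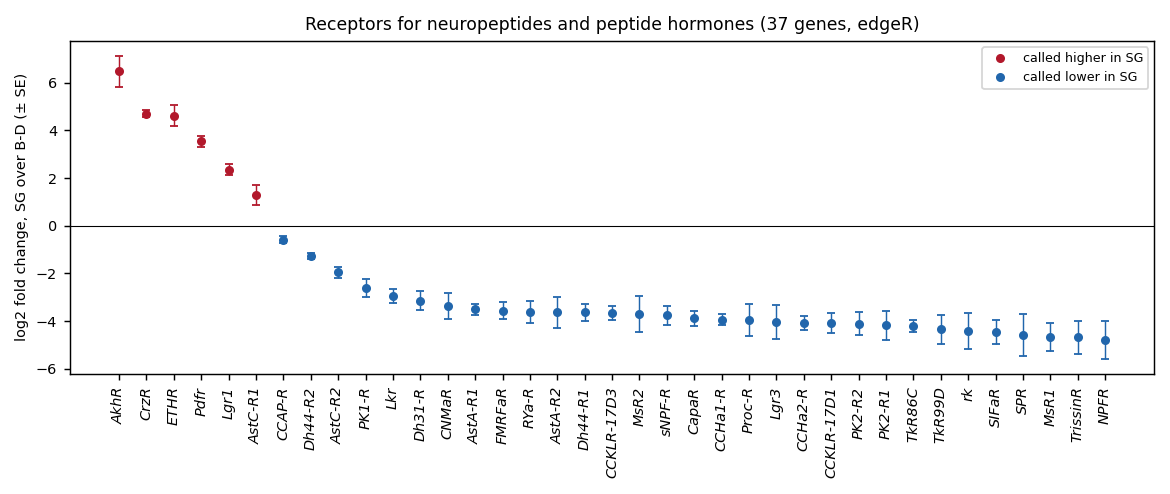
Log2 fold change of SG over B-D with its SE for 37 receptor genes of neuropeptides and peptide hormones. The 6 higher genes run from AkhR at 6.48 to AstC-R1 at 1.29, and the 31 lower genes reach -4.79 for NPFR.

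Of 15 other peptide hormone genes tested 12 were lower, against 35.3% of all genes, Ilp6 was higher, against 34.5% of all genes, and the median log2 fold change was -3.99. Only 4 of the 15 reached the filter minimum in every SG library. The lower genes with the smallest p were Orcokinin (-4.70, or -5.50 without SG replicate 1), Ilp7, an insulin-like peptide of the nerve cord (-1.86), and spab (-4.70). Ilp6, the insulin-like peptide of the fat body, had 38.0, 35.5 and 60.5 CPM in SG replicates 1 to 3, against 11.2, 10.5 and 11.75 CPM in B-D (2.00 ± 0.23 SE, edgeR adjusted p = 4.07e-04). The part of fat body RNA in the Ilp6 value was not tested. RYa and Ilp1 had 0 reads in every SG library and at most 6 reads in a B-D library, and were not tested.

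Of 21 genes measured for further processing enzymes and dense core vesicle traffic 15 were lower, against 35.3% of all genes, and 2 higher, against 34.5% of all genes (median log2 fold change -3.21). Lower genes with the smallest p were Sytbeta, a synaptotagmin (-2.22), unc-104, the kinesin that carries vesicles along axons (-3.03), and Rab3, a GTPase of synaptic vesicles (-3.41). Beside Pal1 only Cpes, a sphingolipid synthase gene, was called higher (0.55 ± 0.12 SE, edgeR adjusted p = 0.00632). Cpes lost its call with upper quartile scaling (0.36) and without SG replicate 1 (0.45), and without TMM was called lower, at -0.55 (edgeR adjusted p = 0.00384).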

How the data were processed

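Polyadenylated RNA of 3 SG and 3 B-D samples was sequenced from stranded libraries. By the methods of the study and the submitters' processing notes, the tools were FastQC 0.11.5 for read quality, STAR 2.6.1a for alignment to Release 6 and featureCounts for counting. The authors deposited raw counts for each gene, not normalized, with the gene's exon length. How the counting treated strand and multiply mapped reads is not given in the sources used here. A comparison by the authors with DESeq2 1.14.1 (log2 fold changes and p-values) was also deposited and was not used.

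Groups came from sample titles. The test was the quasi-likelihood F test of edgeR 4.0.16 (R 4.3.3) with tissue as the only term, after filterByExpr (minimum of 0.193 CPM) and TMM scaling, with Benjamini-Hochberg adjustment over all genes tested. SE is the log2 fold change divided by the square root of F. Floors of 3 counts cover counting error only. Exon lengths equalled those of the Ensembl annotation in Release 6 coordinates for all 37 genes, with Nplp2 matched by symbol. The scripts' test was checked on simulated data in which only a small part of the genes changed. That check does not test the scaling in data where most genes differ, as here.

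Named genes were all 37 members and, from lists of receptors, other peptide hormones and dense core vesicle genes, the 3 with the smallest adjusted p in each direction, plus every gene called higher where a list had 5 or fewer. Members and lists were chosen with earlier results of these data known. Alternatives were DESeq2 1.42.0, limma-voom (limma 3.58.1), other scalings and filters, a replicate block, each library left out, and SG replicate 2 alone.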

Additional observations from a re-analysis of the deposited data

How the results depend on the processing

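The 27 lowered precursors were called lower under every alternative with more than 1 SG library, with medians of -3.98 to -5.56. With SG replicate 2 alone the median was -6.73. These genes were picked by their call in the main fit of the same counts, and many entered the test through B-D. The repeated call is therefore no separate support for a direction. Without TMM, scaled by library size alone, 1588 genes were called higher and 7111 lower over all genes, 32 members were called lower and 3 higher, and Nplp4 (-0.84) and Cpes (-0.55) were called lower. With single libraries left out Nplp4 ran from -0.071 (without SG replicate 2) to 0.40. Dense core vesicle genes called higher, 2 in the main test, numbered 1 without TMM, with upper quartile scaling and with SG replicate 2 alone, and 1 to 2 when single libraries were left out (1 without SG replicate 1). The cause of these moves was not tested, apart from Nplp4, whose sign changes with the removal of its highest SG library. With limma-voom 9 of the 27 lowered precursors moved by over 1.5 times, all of them called, and amn was called with limma-voom (-1.77), upper quartile scaling (-1.78), without TMM (-2.67) and with SG replicate 2 alone.

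Same-numbered SG and B-D libraries deviated together weakly, with correlations of 0.32, 0.0796 and 0.21 for replicates 1 to 3. Correlations of differently numbered libraries ran from -0.34 to 0.22. All of these were negative except that of SG replicate 3 with B-D replicate 2, at 0.22. The sources used here do not say whether equal numbers mark the same larvae. The main test therefore did not pair the libraries, and a replicate block was fitted as an alternative. With a replicate block 3893 genes were higher and 3985 lower, 4 members were higher and 30 lower, and no call of a member changed. AstC-R1 lost its call (1.36, edgeR adjusted p = 0.078). Genes with few reads in SG, such as Pburs, Lk and amn, are limited by depth.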

Other observations

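Some hormone genes outside the set were chosen here after their values were seen. Ilp2, an insulin-like peptide gene of the insulin producing cells of the brain, had 312, 0 and 321 reads in SG replicates 1 to 3, against 10522, 8916 and 10398 reads in B-D replicates 1 to 3. Ilp3, made by the same cells, had 26, 0 and 25 reads in SG, against 646, 433 and 699 reads in B-D. Akh, from the corpora cardiaca beside the brain, had 2.72, 0.161 and 3.05 CPM in SG, against 26.5, 25.5 and 24.8 CPM in B-D. spok, an ecdysone synthesis gene of the ring gland, had 388, 9 and 416 reads in SG, against 12721, 11242 and 14029 reads in B-D. SG replicate 2 was thus far below the other SG libraries for each of these genes.

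Gpa2 and Gpb5 encode the subunits of the ligand of Lgr1. Gpa2 had 13, 2 and 0 reads in SG replicates 1 to 3, against 525, 454 and 532 reads in B-D, and Gpb5 had 31, 2 and 9 reads in SG, against 1014, 819 and 1023 reads in B-D. Both were called lower, while Lgr1 was called higher. No cause of these values was tested.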
